A study of Mus musculus with 15 samples.

Results

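The complement and coagulation factor genes of the liver were followed across diethylnitrosamine and high fat diet exposure and across treatment with MCOPPB. The set held 39 genes of 54281 in the expression table, chosen by name as hepatocyte-secreted factors: 18 of the complement system and 21 of coagulation and fibrinolysis. RNA sequencing of whole liver from male C57BL6J mice, 9.5 months old, gave 15 libraries in 4 groups. DEN/HFD mice had received the carcinogen diethylnitrosamine (DEN, 25 mg/kg) at 2 weeks of age and later 32 weeks of a high fat diet (HFD) with 60% of its energy from lard, a model of progressive fatty liver disease. Chow mice had received the vehicle in place of DEN and stayed on chow, so DEN and the diet cannot be told apart. MCOPPB, a ligand selective for the nociceptin/orphanin FQ opioid receptor, was injected into the peritoneum at 5 mg/kg in 3 cycles of 5 daily doses and 2 days without drug, 21 days in all, and the other mice were injected with saline. There were 3 DEN/HFD MCOPPB, 4 DEN/HFD saline, 5 chow MCOPPB and 3 chow saline libraries. The labels number the mice of a group and say nothing of litters or cages, so p-values measure the spread between these libraries.

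Complement is a cascade of plasma proteins that marks and lyses targets. The classical route begins with the proteases C1r and C1s, the lectin route with mannose-binding lectins and their MASP proteases, and both cut C4 and C2 to build an enzyme that activates C3, while factor B builds the corresponding enzyme of the alternative route. All routes end in the terminal pathway, in which C5, C6, C7, C8 and C9 assemble a pore in the target membrane. Coagulation runs from the contact proteins and the vitamin K-dependent factors to thrombin, which turns fibrinogen into fibrin, and fibrinolysis dissolves the clot through plasmin. Hepatocytes are the main source of most of these plasma proteins.

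Estimated depth was 9.32 to 18.7 M reads per library, with a median of 15.01 M, and mitochondrial genes took 12.01% to 31.0% of it. Values below are normalized counts, recovered from the deposited log2 values, and differences are on the deposited log2 scale with their standard error. A gene counts as called when its adjusted p was under 0.05 in limma with Benjamini-Hochberg adjustment over the 11568 genes that passed the filter on low values, and all 39 members passed it. Hepatocyte markers (7 of 8 listed in the table) summed to 1854016 to 3002023 normalized counts in DEN/HFD MCOPPB, 2506706 to 3345113 in DEN/HFD saline, 1769766 to 3825851 in chow MCOPPB and 1626860 to 3366409 in chow saline libraries, and none of the 7 was at 0 in any group. In whole tissue, fewer cells of a type and less RNA per cell cannot be told apart. The first RNA integrity number of the labels did not overlap between DEN/HFD MCOPPB (8.7 to 9.2) and chow MCOPPB libraries (9.9 to 10), nor between chow MCOPPB and chow saline libraries (9 to 9.7). With it as a covariate, 0 of 11568 genes were called between DEN/HFD and chow with MCOPPB, against 66 without it, and 15 with MCOPPB against saline on chow, against 37 without it.

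The 39 members together took 2.28 ± 0.20% of all normalized counts in DEN/HFD MCOPPB (SD, n = 3), 1.98 ± 0.18% in DEN/HFD saline (n = 4), 2.98 ± 0.57% in chow MCOPPB (n = 5) and 2.49 ± 0.096% in chow saline livers (n = 3). Per kilobase of exon, the mean levels over the 15 libraries spanned about 2 orders of magnitude. The fibrinogen chain genes Fgb and Fgg led at 12679 and 12303 normalized counts per kb, followed by C3 at 11506, Fga at 9963 and Vtn, which encodes the adhesive plasma protein vitronectin, at 9888. The lowest were Pros1, for protein S, at 105, C2 at 135 and Masp1 at 157, and C6 stood at 257. The exon length counts every annotated transcript, so levels of genes with long alternative transcripts, such as Masp1, are understated.

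**Figure D1:**
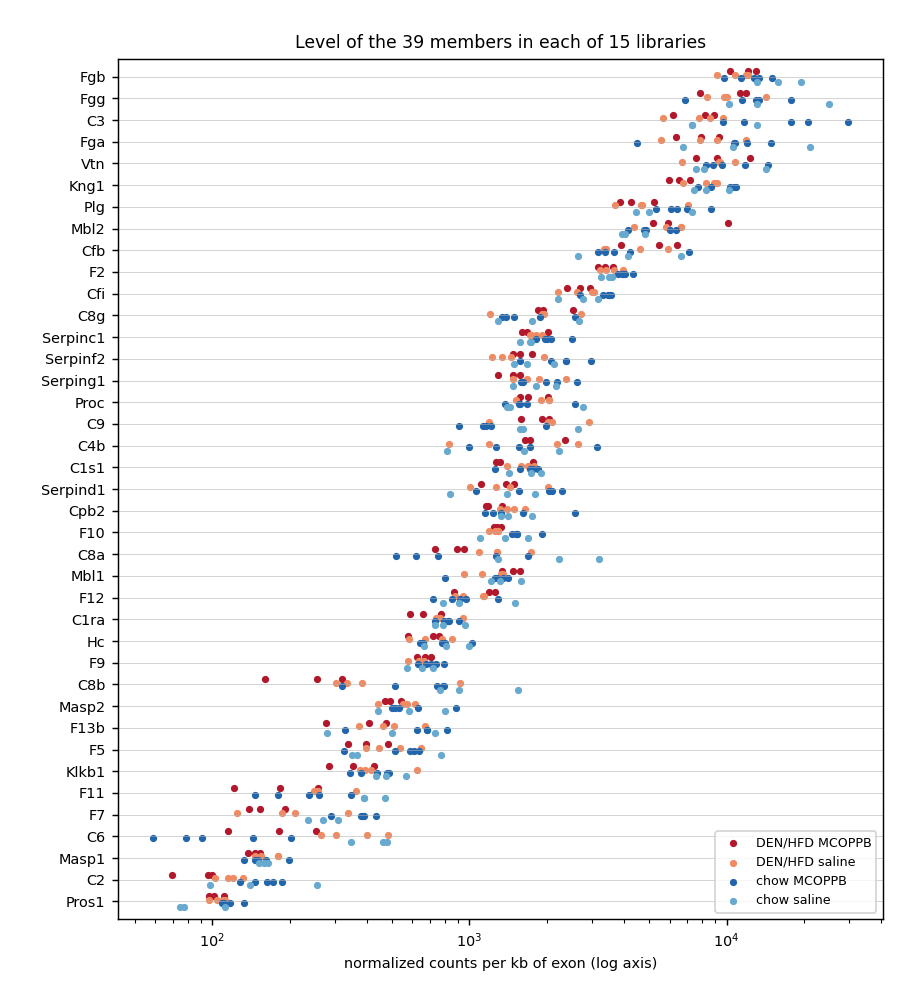
Level of each of the 39 members in each of the 15 libraries, in normalized counts per kb of exon on a log axis, with genes ordered by their mean and points coloured by group. The 15 points of F2 lie close together, whereas those of C6 and C8b spread over almost a whole decade.

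The members differed in how steady they were. F2, for prothrombin, varied 1.37-fold and F9, for factor IX, 1.39-fold between the lowest and the highest of the 15 libraries. C8b varied 9.70-fold, C6 8.22-fold, C8a 6.17-fold and C3 5.25-fold, so 3 of the 4 widest ranges belonged to the terminal pathway. Within groups, the pooled SD on the log2 scale was 0.0962 for F2 and 0.116 for F9, against 0.639 for C4b, 0.595 for Fga, 0.564 for C8b and 0.531 for C8a. The median pooled SD was 0.306 over the members and 0.298 over all genes tested.

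Across the 5 comparisons, a member was called in 2. On chow, 1 of 39 members was called with MCOPPB against saline, C6, which was lower, and 0.32% of all genes tested were called. Under DEN/HFD, 0 members were called with MCOPPB against saline, where 0.0259% of all genes were called and 3 members had an unadjusted p under 0.05 in limma, all lower, as were 2.44% of all genes. With saline, DEN/HFD against chow gave 0 called members, against 0.0519% of all genes, and 3 members had an unadjusted p under 0.05, all lower, as were 5.5% of all genes. With MCOPPB, DEN/HFD against chow gave 1 called member, F7, which was lower, against 0.571% of all genes. For the difference between the MCOPPB effects under DEN/HFD and on chow, 0 members were called, against 0.0692% of all genes, and 1 member, F7, had an unadjusted p under 0.05, where 3.18% of all genes were lower at that level.

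**Figure D2:**
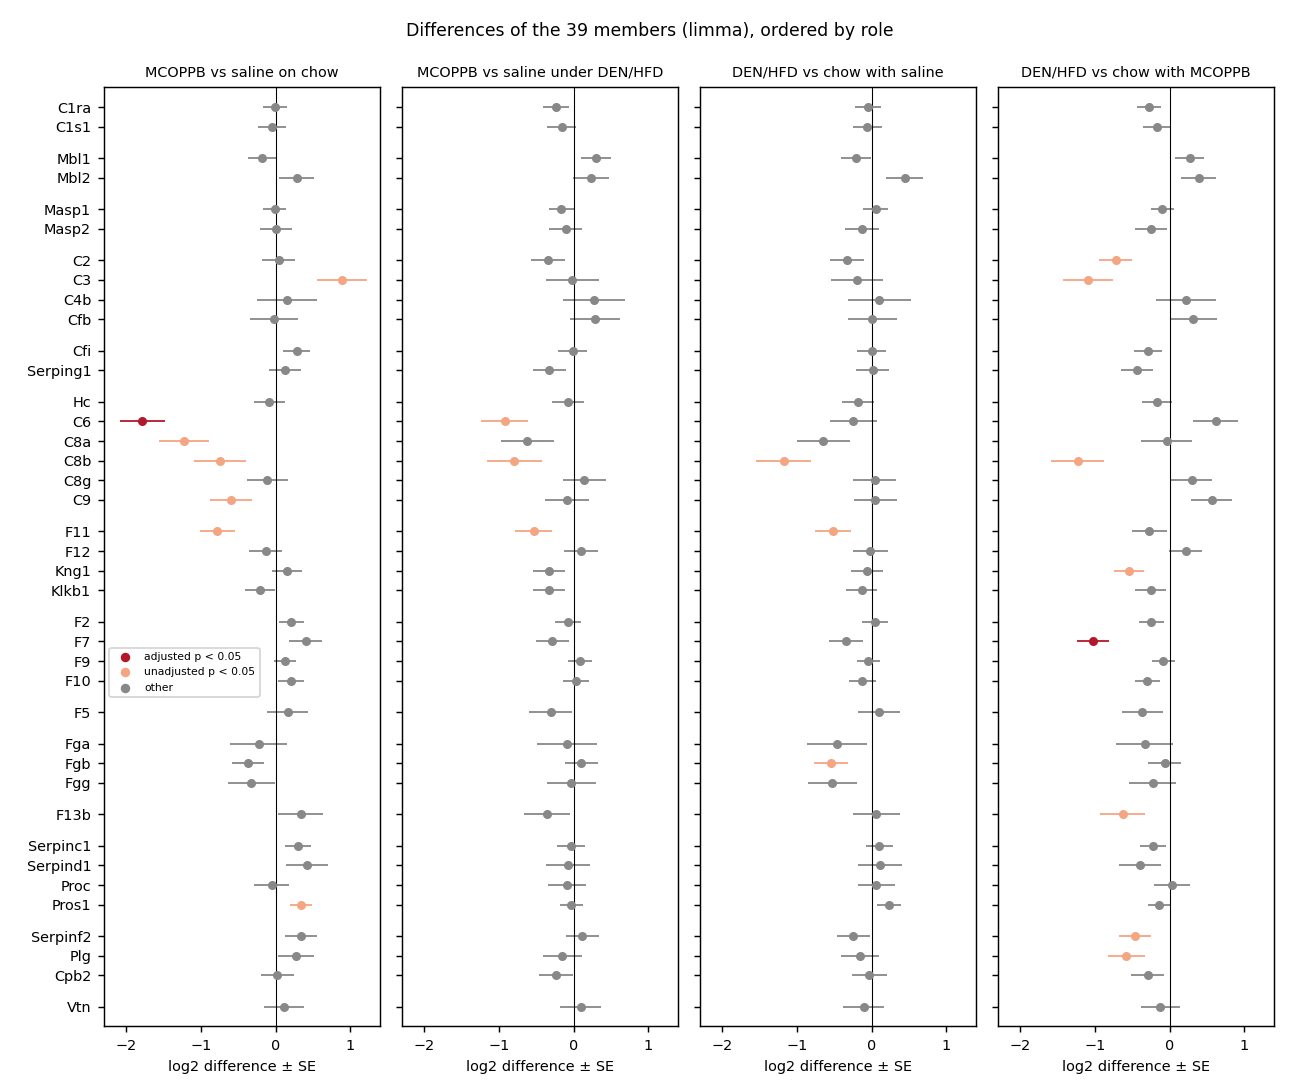
Log2 difference ± SE (limma) of each member in 4 comparisons, with genes ordered by role and a line at 0. C6 in the first panel and F7 in the fourth pass the adjusted threshold, and in the fourth panel 30 of 39 points lie left of 0.

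The terminal pathway held the 2 largest MCOPPB differences among the members on chow, C6 and C8a, and the 3 largest under DEN/HFD, C6, C8b and C8a. C6, the subunit that joins activated C5 first in the membrane pore, had 716, 513, 325, 209 and 281 normalized counts in chow MCOPPB livers, against 1691, 1230.2 and 1632 in chow saline livers. Every chow MCOPPB library lay below every chow saline library. The means were 409 ± 205 and 1518 ± 251 (SD, n = 5 and 3), a log2 difference of -1.79 ± 0.30 and an adjusted p of 0.00866 in limma, the 19th smallest p of all genes tested. Under DEN/HFD, C6 had 897, 408 and 643 normalized counts with MCOPPB, against 1077, 939, 1424 and 1717 with saline. These groups did not overlap either, and the log2 difference of -0.92 ± 0.31 had an unadjusted p of 0.00882 and an adjusted p of 0.761 (limma). The test of the difference between the diets gave 0.86 ± 0.43 with an adjusted p of 0.835, so a diet dependence of the C6 decrease was not shown. The C6 call on chow ended without chow saline library 3 (-1.73, adjusted p = 0.0721) and with the RNA integrity number as a covariate (-1.53, adjusted p = 0.190), or the second such number of the labels (-1.70, adjusted p = 0.0526).

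C6 is ENSMUSG00000022181.16 at chr15:4727175-4814967 on the plus strand (GRCm38). C8a is ENSMUSG00000035031.15 at chr4:104815679-104876398 on the minus strand. C8b is ENSMUSG00000029656.13 at chr4:104766317-104804548 on the plus strand, 11.13 kb from C8a with the 3′ ends facing each other. The bases just upstream of these 3 genes are shown, since they hold the terminal pathway members that were lowest with MCOPPB. They were taken from RefSeq (GRCm38.p6), 5′ to 3′ on the gene's strand and ending before the annotated start. Capitals mark matches to TTCNNNGAA, the form bound by STAT factors, or to GTTAAT, a short form of the site of HNF1, which reads ATTAAC on the other strand.
C6 (chr15:4726960-4727174, plus strand): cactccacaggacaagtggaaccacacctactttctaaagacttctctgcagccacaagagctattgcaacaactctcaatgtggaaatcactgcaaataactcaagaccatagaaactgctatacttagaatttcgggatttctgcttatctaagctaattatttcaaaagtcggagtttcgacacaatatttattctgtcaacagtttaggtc
C8a (chr4:104876399-104876648, minus strand): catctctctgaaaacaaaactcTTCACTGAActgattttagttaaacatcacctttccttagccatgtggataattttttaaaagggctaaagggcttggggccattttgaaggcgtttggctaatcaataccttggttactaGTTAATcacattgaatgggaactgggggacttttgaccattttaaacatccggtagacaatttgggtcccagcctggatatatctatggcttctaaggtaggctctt
C8b (chr4:104766067-104766316, plus strand): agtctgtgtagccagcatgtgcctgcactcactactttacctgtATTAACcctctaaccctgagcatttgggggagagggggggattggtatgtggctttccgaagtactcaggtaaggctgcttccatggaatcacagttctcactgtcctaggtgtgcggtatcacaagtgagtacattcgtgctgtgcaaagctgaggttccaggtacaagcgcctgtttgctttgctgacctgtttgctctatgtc
The C8a window held both motifs, TTCACTGAA from base -228 and GTTAAT from base -107, counted from the start. The C8b window held ATTAAC from base -206, and no match lay in the C6 window. Over all 27025 genes with a window of 250 bases, 8.13% held TTCNNNGAA and 7.49% held GTTAAT on either strand. Windows were found for 30 members, of which 6 held TTCNNNGAA (C8a, Masp2, F9, Fga, Fgb and Pros1) and 8 held GTTAAT (Hc, C8a, C8b, C1ra, F13b, Fga, Fgb and Vtn). Some windows of 250 bases ran past the annotated gene start, and the C6 sequence shown was cut there to 215 bases. The GTTAAT matches of C1ra and Fga, at bases -160 and -43, lay past that start. The sites are matches of letters only.

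C8a and C8b encode the alpha and beta chains of C8, which insert the growing pore into the membrane. C8a had 4627, 2250.1, 2730.4, 6155 and 1875 normalized counts in chow MCOPPB livers, against 4686, 11563 and 8078 in chow saline livers. Only chow MCOPPB 4 reached past the lowest saline library. The log2 difference was -1.23 ± 0.34 with an adjusted p of 0.207 (limma), which missed the threshold. It was -0.93 without chow saline 2 and -1.57 without chow saline 1. Under DEN/HFD, C8a had 3446, 2671 and 3261 with MCOPPB, against 6291, 4671, 3949.8 and 4669 with saline, with no overlap and a log2 difference of -0.62 ± 0.36 (unadjusted p = 0.099, limma).

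C8b had its lowest mean in DEN/HFD MCOPPB livers and its highest in chow saline livers, without passing the adjusted threshold in any comparison. It had 813, 406.5 and 649 normalized counts in DEN/HFD MCOPPB livers and 848, 968, 767 and 2338 in DEN/HFD saline livers. In chow livers it had 1907, 2000.2, 1305, 2027 and 809.9 with MCOPPB and 2327, 3941 and 1959 with saline. The log2 difference of MCOPPB from saline was -0.80 ± 0.37 under DEN/HFD and -0.75 ± 0.35 on chow. Between DEN/HFD and chow it was -1.18 ± 0.37 with saline (adjusted p = 0.257) and -1.23 ± 0.35 with MCOPPB (adjusted p = 0.139, limma). DEN/HFD saline 4 stood far above its group at 2338 normalized counts. Without it, the MCOPPB difference of C8b under DEN/HFD shrank to -0.46, and C8b with MCOPPB passed the threshold between DEN/HFD and chow (adjusted p = 0.0496, limma). That library is in neither group of the latter comparison, so the difference there stayed at -1.23. Only the spread shared by all libraries and the genes tested changed, and 157 of 11528 genes were called, against 66 with all libraries. With the RNA integrity number as a covariate, the C8b difference between DEN/HFD and chow with MCOPPB shrank to -0.41 (adjusted p = 0.777, limma).

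C9, the subunit that forms most of the pore wall, had 2967, 2872, 3086, 5056 and 2324 normalized counts in chow MCOPPB livers, against 4139, 6750.4 and 4014 in chow saline livers. Its log2 difference was -0.60 ± 0.28, with an unadjusted p of 0.046 and an adjusted p of 0.549 (limma). Hc, the gene of complement C5, differed by -0.08 and C8g, for the small gamma chain of C8, by -0.11, both less than their standard errors. All 6 terminal pathway members thus had negative differences on chow, with a median of -0.67, and 4 of them an unadjusted p under 0.05. Under DEN/HFD, 5 of the 6 were negative with a median of -0.36. Those 5 had negative MCOPPB differences on both diets, whose libraries do not overlap, against 13 of all 39 members and 2766 of 11568 genes tested.

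**Figure D3:**
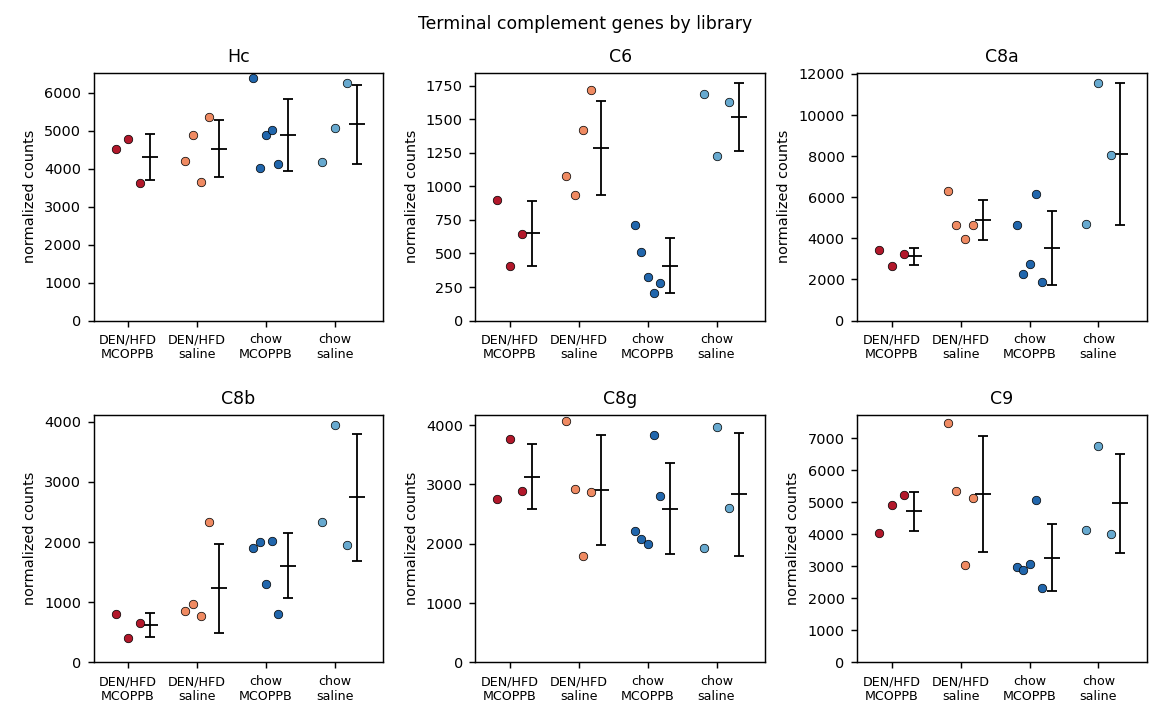
Normalized counts of the 6 terminal pathway genes by library, in the order DEN/HFD MCOPPB, DEN/HFD saline, chow MCOPPB and chow saline, with the mean ± SD beside the points. The MCOPPB points of C6 lie below the saline points on each diet, whereas those of Hc and C8g overlap.

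The chains of C8 did not keep 1 ratio. C8a over C8g, each per kb, was 0.292 to 0.515 in DEN/HFD MCOPPB livers, against 0.636 to 0.903 in DEN/HFD saline livers. On chow it was 0.274 to 0.857 with MCOPPB, against 1.00 to 1.27 with saline. The MCOPPB and saline libraries did not overlap on either diet. The ratio does not depend on how a library is scaled, and it was picked after the values were seen, so it is given with no test.

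Genes with sex-biased expression in mouse liver moved in the same libraries as C6, and their part in the C6 result was not tested. Of 16 male-biased genes tested, 7 were called lower on chow with MCOPPB and 0 higher, with a median of -2.83. The 7 were Elovl3, Mup20, Mup21, Cyp4a12b, Hsd3b5, Cyp2u1 and Slco1a1, at -4.31 (Mup20) to -1.13 (Cyp2u1). Under DEN/HFD 0 were called, 13 had an unadjusted p under 0.05, all lower, and the median was -1.66. DEN/HFD saline 4 stood far above its group in these genes, with a mean log2 level of 12.56, against 10.52 to 10.83 in the others. Of 15 female-biased genes, 8 were called higher on chow and 1, Cyp17a1, under DEN/HFD, with medians of 1.35 and 0.54. The 8 were Cyp2b9, Cyp2b13, Cyp2c40, Cyp2c69, Slc22a26, Acot3, Sult3a1 and Cyp2a4, at 1.13 (Sult3a1) to 5.50 (Cyp2b9). Neither list holds C6 or another member, but the lists are short selections. All mice were male, so a sex bias of the members themselves could not be measured. Between DEN/HFD and chow with MCOPPB, where F7 was called, 7 female-biased genes were called lower and the male-biased Elovl3 and Mup20 were called higher. With saline, Cyp2b9 was called higher and Cyp4a12b lower between DEN/HFD and chow. For the difference between the MCOPPB effects, Cyp2b9, Cyp2b13 and Cyp2c40 were called at negative values and Elovl3 at a positive one.

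Of the complement members upstream of the terminal pathway, none was called in any comparison. C1ra and C1s1, for the classical proteases, differed by -0.01 and -0.05 with MCOPPB on chow and by -0.24 and -0.16 under DEN/HFD. No read was counted for their near-identical copies C1rb and C1s2 in any of the 15 libraries, so reads shared with these copies could not be judged. The lectins Mbl1 and Mbl2 and the proteases Masp1 and Masp2 stayed between -0.18 (Mbl1) and 0.28 (Mbl2) on chow and between -0.16 (Masp1) and 0.30 (Mbl1) under DEN/HFD. Mbl2 differed between DEN/HFD and chow by 0.44 ± 0.24 with saline and 0.39 ± 0.23 with MCOPPB, with unadjusted p of 0.0862 and 0.111 (limma). C4b has a near copy, C4a, and whether reads were split between them was not measured. C4b had the widest spread within groups and no comparison with an unadjusted p under 0.05.

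C3, the protein on which all activation routes converge, was the complement member with the largest positive difference on chow. It had 152552, 106282.5, 91763, 49948 and 59969 normalized counts in chow MCOPPB livers, against 67843, 37709 and 37829 in chow saline livers. The groups overlapped, and the log2 difference of 0.89 ± 0.33 had an adjusted p of 0.411 (limma). Chow MCOPPB 1 was highest in C3 and also in a list of 25 acute phase genes, whose mean log2 level was 12.1 there, against 10.7 to 11.1 in the other chow MCOPPB libraries, and without that library the C3 difference was 0.68. Of the 25 acute phase genes, 21 had positive differences with MCOPPB on chow, with a median of 0.48 and none called. The part of the acute phase genes in the C3 values was not tested.

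Under DEN/HFD, C3 had 42488, 45967 and 31932 normalized counts with MCOPPB, against 29058, 40278, 44300.2 and 49737 with saline, a difference of -0.02. Every DEN/HFD MCOPPB value lay below every chow MCOPPB value, a difference of -1.10 ± 0.33 with an adjusted p of 0.165 (limma). C2, the gene of the protease subunit of the classical C3 convertase, had 387, 269 and 371 in DEN/HFD MCOPPB livers and 721, 631, 496, 569 and 666 in chow MCOPPB livers. These did not overlap, and the difference was -0.72 ± 0.22 (adjusted p = 0.162, limma). C2 and Cfb both overlap the annotated gene Gm20547 on the same strand, which had a mean of 22.9 normalized counts. Cfb, whose start lies downstream of C2 on chromosome 17 with 85 bases between the genes, had a difference of 0.32 ± 0.32 in the same comparison. The inhibitors Cfi and Serping1, for factor I and the C1 inhibitor, differed by -0.29 and -0.44. With array weights, C2, C3 and F7 were called in this comparison, where 285 of 11568 genes were called, against 66 without weights.

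The contact system starts coagulation on charged surfaces. F11, for factor XI, had 402, 772, 329, 531 and 583 normalized counts in chow MCOPPB livers, against 871, 869.5 and 1055 in chow saline livers. The groups did not overlap, and the log2 difference was -0.78 ± 0.23 with an adjusted p of 0.246 (limma). Under DEN/HFD it had 575, 273 and 411 with MCOPPB, against 578, 574, 557 and 810.1 with saline, a difference of -0.54 ± 0.25 with an unadjusted p of 0.0426 and overlapping values. It shrank to -0.31 without DEN/HFD MCOPPB 2. With saline, the DEN/HFD values lay below all chow values, by -0.52 ± 0.25 (unadjusted p = 0.0497, limma). F11 lies at chr8:45241174-45262031, 4.657 kb from Klkb1, for plasma prekallikrein, on the same strand. Klkb1 differed by -0.20 on chow and -0.33 under DEN/HFD with MCOPPB, and by -0.13 between DEN/HFD and chow with saline. F12, for factor XII, and Kng1, for kininogen, differed by -0.13 and 0.16 with MCOPPB on chow and by 0.10 and -0.33 under DEN/HFD. Kng1 likewise has a near copy, Kng2, and a split of reads was not measured.

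F7 encodes factor VII, the vitamin K-dependent protease that starts clotting with tissue factor, and was the coagulation member with a call. It had 283, 355 and 257 normalized counts in DEN/HFD MCOPPB livers, against 715, 722, 704, 536 and 802 in chow MCOPPB livers. All DEN/HFD values were lower than all chow values. The means were 298.5 ± 50.5 and 696 ± 97.4 (SD, n = 3 and 5), a log2 difference of -1.03 ± 0.22 with an adjusted p of 0.0352, the 53rd smallest p of all genes in limma. With saline, it had 231, 389, 347 and 628 under DEN/HFD, against 502, 574 and 438 on chow. These overlapped, with a difference of -0.35 ± 0.22 (unadjusted p = 0.143, limma). MCOPPB differed from saline by -0.28 ± 0.22 under DEN/HFD and by 0.40 ± 0.22 on chow, and the difference between these effects was -0.68 ± 0.31 with an unadjusted p of 0.0416 and an adjusted p of 0.833 (limma). The call was lost in 8 of 15 fits that left out 1 library, those without any of the 3 DEN/HFD MCOPPB libraries, DEN/HFD saline 2 or chow MCOPPB 1, 2, 3 or 5 (adjusted p 0.0552 to 0.208), with differences from -1.13 to -0.95. It was also lost with no filter on low values (adjusted p = 0.0590) and with the RNA integrity number as a covariate (adjusted p = 0.316), or the second such number of the labels (adjusted p = 0.0817).

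F7 is ENSMUSG00000031443.7 at chr8:13026034-13035809 on the plus strand of GRCm38, and F10, for factor X, begins 1.498 kb downstream on the same strand. The 250 bases upstream of F7 are shown because it was the called coagulation gene (RefSeq, GRCm38.p6); they hold no match to TTCNNNGAA, GTTAAT or CAAAGTCCA, a form bound by HNF4 that 0.451% of all windows and 0 of the 30 member windows held.
F7 (chr8:13025784-13026033, plus strand): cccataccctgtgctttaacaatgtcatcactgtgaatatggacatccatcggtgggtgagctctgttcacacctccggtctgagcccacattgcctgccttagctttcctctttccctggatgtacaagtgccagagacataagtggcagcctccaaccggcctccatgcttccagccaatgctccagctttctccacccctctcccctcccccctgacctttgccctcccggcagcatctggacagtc
F10 had 3482, 3619.8 and 3408 normalized counts in DEN/HFD MCOPPB livers, against 4187, 4141, 4014, 5243 and 4177 in chow MCOPPB livers. Those groups did not overlap either, but the difference was -0.30 ± 0.17 with an unadjusted p of 0.0952 (limma). The ratio of F7 to F10 counts was 0.0755 to 0.0980 in DEN/HFD MCOPPB, 0.0656 to 0.178 in DEN/HFD saline, 0.102 to 0.192 in chow MCOPPB and 0.116 to 0.167 in chow saline livers. The vitamin K-dependent clotting factors F2 and F9 differed by -0.24 and -0.08 between DEN/HFD and chow with MCOPPB. The inhibitors Proc and Pros1, whose proteins also depend on vitamin K, differed by 0.03 and -0.14 there.

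**Figure D4:**
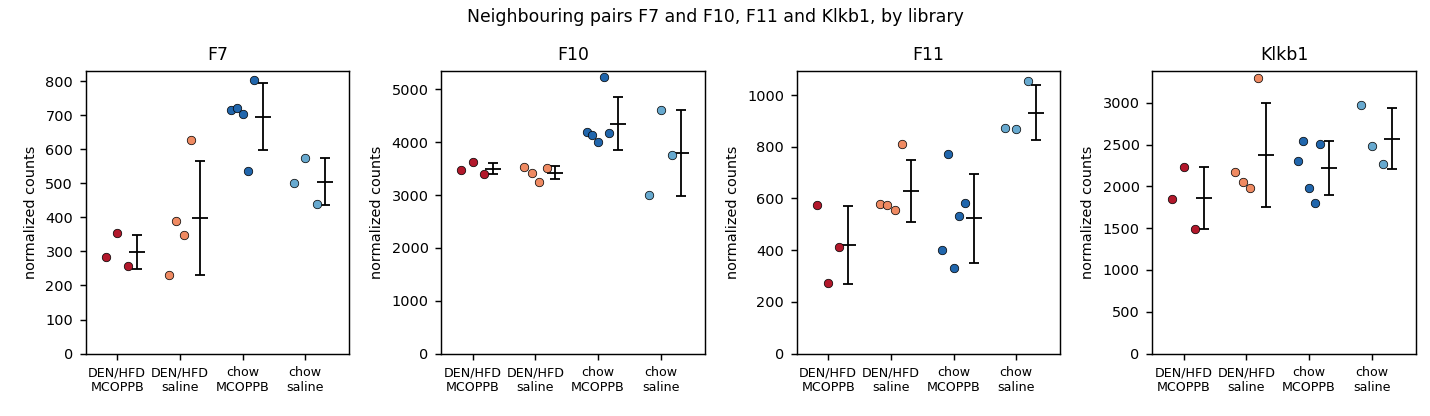
Normalized counts by library of 2 pairs of neighbouring genes on chromosome 8, F7 with F10 and F11 with Klkb1, with the mean ± SD beside the points. The DEN/HFD MCOPPB points of F7, at 257 to 355, lie below the chow MCOPPB points, at 536 to 802, and the chow saline points of F11, at 869.5 to 1055, lie above all chow MCOPPB points.

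Between DEN/HFD and chow with MCOPPB, 30 of 39 members were negative, with a median of -0.24, where 50.6% of all genes were negative with a median of -0.01. The members' median was -0.16 without DEN/HFD MCOPPB 3 and also after quantile normalization. The RNA integrity numbers given above separate these groups, and with that number as a covariate the median was -0.21 and no gene was called. In coagulation and fibrinolysis, 19 of 21 were negative. An unadjusted p under 0.05 was found for 8 members, all lower (C8b, C2, C3, Kng1, F7, Plg, Serpinf2 and F13b), where 6.35% of all genes were lower at that level. In 8 members the DEN/HFD values lay below all chow values (F7, C2, C3, Kng1, Plg, Serping1, F10 and F2), where 4.68% of all genes did so. Plg, for plasminogen, had 14297 to 19426 normalized counts in DEN/HFD MCOPPB livers, against 19704 to 32315 in chow MCOPPB livers, a difference of -0.58 ± 0.25 (adjusted p = 0.33, limma). Kng1 had 19321 to 23492, against 25104 to 35420.1, in the same order, a difference of -0.55 ± 0.20 (adjusted p = 0.273). Serpinf2, for the plasmin inhibitor, and F13b, for the carrier subunit of fibrin-crosslinking factor XIII, overlapped between the groups and differed by -0.47 and -0.63. Red blood cell markers had 5 of 5 negative differences in the same comparison, with a median of -1.14 and none called, and their part in these values was not tested. The comparison with saline, which uses the other 7 libraries, had 24 of 39 negative, where 48.6% of all genes were, and a median of -0.06. That median was -0.03 without DEN/HFD saline 3, -0.12 to -0.10 without DEN/HFD saline 1 or 4 or any 1 chow saline library, and -0.02 with equal library medians.

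Fibrinogen is a hexamer of 2 alpha, 2 beta and 2 gamma chains, encoded by Fga, Fgb and Fgg within 1 cluster on chromosome 3 (11.026 kb from Fgg to Fga and 6.513 kb from Fga to Fgb). Fgb had 40982, 45164, 35123 and 46323 normalized counts in DEN/HFD saline livers, against 74105, 60392 and 49923 in chow saline livers. The groups did not overlap, and the difference was -0.54 ± 0.23 with an unadjusted p of 0.0285 and an adjusted p of 0.379 (limma). Fga had 16721, 23697.5, 27631 and 35882 in DEN/HFD saline livers, against 63576, 20339 and 31941 in chow saline livers, a difference of -0.46 ± 0.40 that became -0.03 without chow saline 1, -0.85 without chow saline 2 and -0.27 without DEN/HFD saline 1. Fgg had 17495, 20479, 20953 and 29913, against 52619, 21335 and 27472, in the same order, and differed by -0.53 ± 0.33, or -0.15 without chow saline 1 and -0.80 without chow saline 2. With MCOPPB against saline on chow, the 3 chains differed by -0.22, -0.37 and -0.32 for Fga, Fgb and Fgg. Only chow saline 1 lay above the chow MCOPPB values of Fga (13459 to 44630) and Fgg (14389 to 37169). The other chow saline libraries lay within those ranges, so the negative signs of Fga and Fgg hung on chow saline 1. Under DEN/HFD the chains differed by -0.09, 0.11 and -0.03 in the same order.

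**Figure D5:**
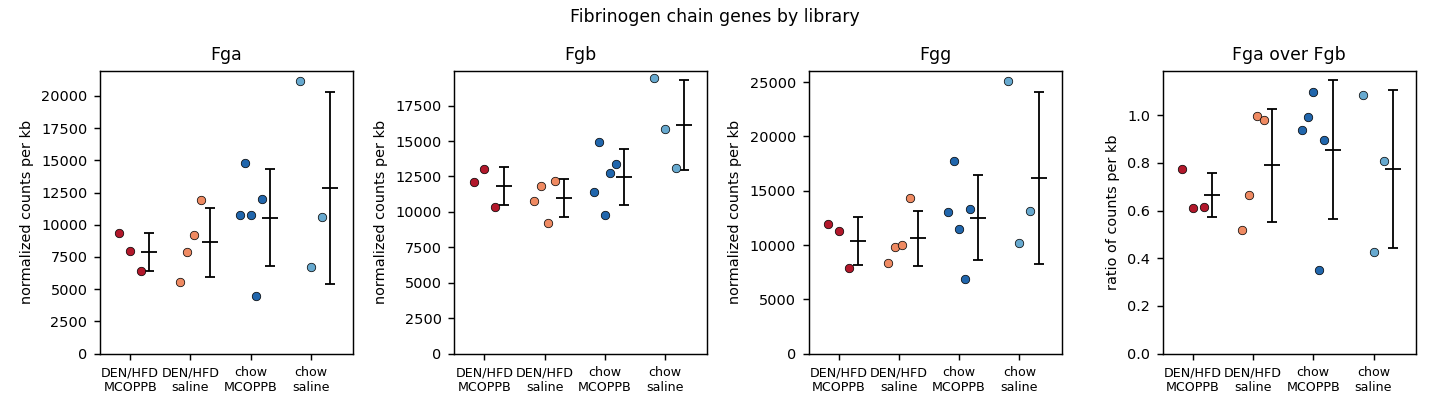
Normalized counts per kb of exon of the fibrinogen chain genes Fga, Fgb and Fgg by library, with the mean ± SD beside the points. A last panel shows the ratio of Fga to Fgb. Chow saline 1 is highest in the panels of the 3 genes, and chow MCOPPB 4 is lowest in Fga at 4471 per kb.

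The chains also varied against each other. Fga over Fgb per kb was 0.351 in chow MCOPPB 4 and 0.426 in chow saline 2, against 0.516 to 1.10 in the other libraries. These 2 libraries had the largest mitochondrial shares, 31.0% and 29.3%. Set against their own group means, 18 members were above in both and 14 below in both. This was not counted over all genes tested, so it cannot be called particular to the members. C4b was up by 0.95 and 0.63 and Fga stood at -1.13 and -0.76 on the log2 scale. Of the terminal pathway, C8a stood at 0.93 and 0.60, C9 at 0.67 and 0.48, C8g at 0.60 and 0.53 and C8b at 0.39 and 0.57. C6 stood at -0.66 and -0.27 and Hc at 0.06 and -0.01. The part of the mitochondrial share in these values was not tested.

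Among the inhibitors of coagulation, Pros1 had, with MCOPPB on chow, 542, 449, 453, 445 and 477 normalized counts against 456, 305 and 318 with saline, a difference of 0.34 ± 0.15 (unadjusted p = 0.0337, adjusted p = 0.512, limma). Serpinc1, for antithrombin, had 15443 to 21324 in chow MCOPPB livers, against 13390.0 to 14761 in chow saline livers, without overlap, and a difference of 0.30 ± 0.18. F2 had 17378 to 19859, against 14950.0 to 16510.4, also without overlap, and a difference of 0.21 ± 0.17. These were the 2 members that lay wholly higher on chow, where 2.64% of all genes did so, and 2 members (C6 and F11) lay wholly lower, against 2.14%. Serpind1, for heparin cofactor II, differed by 0.43, and Proc, for protein C, by -0.05. F5, for the cofactor factor V, Cpb2, for a carboxypeptidase that slows fibrinolysis, and Vtn differed by 0.16, 0.02 and 0.11.

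Over all members on chow, 21 differences were positive and 18 negative with a median of 0.02, which turned to -0.0021 after quantile normalization, -0.043 with the RNA integrity number as a covariate, -0.0097 without chow MCOPPB 1 and -0.0035 without chow saline 3, and 49.9% of all genes were negative. An unadjusted p under 0.05 was found for 2 higher (C3 and Pros1) and 5 lower (C6, C8a, C8b, C9 and F11), where 4.76% and 4.3% of all genes were higher and lower at that level. Under DEN/HFD, 28 of 39 were negative with a median of -0.09, or 0.0043 after quantile normalization, where 50.7% of all genes were negative, and the 3 with an unadjusted p under 0.05 were C6, F11 and C8b. The median was -0.03 without DEN/HFD MCOPPB 3, -0.02 without DEN/HFD saline 4 and -0.13 without DEN/HFD saline 1. The 3 members without overlap there were C6, C8a and C2, where 3.74% of all genes lay wholly lower. For DEN/HFD against chow with saline, the 3 lower at an unadjusted p under 0.05 were C8b, Fgb and F11, and the 2 wholly lower were Fgb and F11, against 4.36%.

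Other genes of the same systems were read from companion lists. Of 25 other complement genes tested, none was called in any of the 5 comparisons. Those with the smallest p on chow were C1qc and C1qa, subunits of the recognition protein of the classical route, at 0.77 (adjusted p = 0.148) and 0.92 (adjusted p = 0.203, limma) with MCOPPB against saline. Between DEN/HFD and chow with saline they differed by 1.03 (adjusted p = 0.118) and 1.04 (adjusted p = 0.179). C1q is made by macrophages, and the summed Kupffer cell markers were 2402 to 4718 in DEN/HFD MCOPPB, 1981 to 4344 in DEN/HFD saline, 2091 to 3704 in chow MCOPPB and 1058 to 1328 in chow saline livers. C1qa, C1qb and C1qc were among those markers.

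With MCOPPB under DEN/HFD, the complement genes with the smallest p were Cd55, for a membrane inhibitor, at -0.37 and Cfd, for factor D, at -0.75. With MCOPPB, C5ar1, for the C5a receptor, differed by 0.70 and C1qb by 0.75 between DEN/HFD and chow. For the difference between the MCOPPB effects, C1qc stood at -0.68 and Vsig4, for a macrophage complement receptor, at -0.72.

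Of 21 other coagulation and fibrinolysis genes tested, none was called either. Hrg, for histidine-rich glycoprotein, came closest, at -0.89 between DEN/HFD and chow with MCOPPB (adjusted p = 0.0864, limma), and Proz, for protein Z, differed by -0.56 there. Fgl1, for a fibrinogen-like protein, differed by 1.32 with MCOPPB on chow (adjusted p = 0.258) and by 0.70 under DEN/HFD. F2r, for a thrombin receptor, differed by -0.59 on chow and Serpina10, for an inhibitor that acts with protein Z, by 0.27 under DEN/HFD. F8, for factor VIII, and Plau, for urokinase, differed by 0.43 and 0.56 between DEN/HFD and chow with saline. The difference between the MCOPPB effects was -0.70 for Hrg and -0.36 for Habp2.

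Of 10 genes listed for the vitamin K cycle and factor secretion and of 19 hepatocyte transcription factors, none was called in any comparison. Nqo1, for a quinone reductase, differed by 1.12 between DEN/HFD and chow with saline (adjusted p = 0.145), by 0.53 with MCOPPB, and by 0.75 with MCOPPB against saline on chow (adjusted p = 0.276). Mcfd2 and Lman1, which carry factors V and VIII out of the endoplasmic reticulum, differed by 0.59 with MCOPPB on chow and by -0.45 between DEN/HFD and chow with MCOPPB. Furin, for a protease that matures clotting factors, stood at -0.21 with MCOPPB under DEN/HFD, 0.45 between DEN/HFD and chow with saline and -0.47 for the difference between the MCOPPB effects. Fmo5, a listed flavin monooxygenase that is not an enzyme of the vitamin K cycle, stood at -0.22 with MCOPPB under DEN/HFD and at -0.57 for that difference.

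Among the transcription factors, Cebpb, for C/EBP beta, differed by 1.57 between DEN/HFD and chow with saline (adjusted p = 0.166, limma). Onecut1, for HNF6, differed by -0.80 between DEN/HFD and chow with saline and by -0.88 with MCOPPB, and Nr1i3, for the xenobiotic receptor CAR, by -1.16 with MCOPPB. Cux2, a factor with female-biased liver expression, and Nr1i2, for the receptor PXR, differed by 1.35 and 0.48 with MCOPPB on chow. Cebpa and Rxra differed by -0.45 and -0.40 with MCOPPB under DEN/HFD, and the difference between the MCOPPB effects was -0.65 for Rxra and -1.15 for Cux2.

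Among the 25 acute phase genes, Cp, for ceruloplasmin, was called higher between DEN/HFD and chow with MCOPPB at 0.86 (adjusted p = 0.0462, limma), where Serpina3m stood at -1.26. Orm2 and Orm3, for acid glycoproteins, differed by 2.25 and 1.18 with MCOPPB on chow. Apcs, for serum amyloid P, and Cp differed by 0.74 and 0.30 with MCOPPB under DEN/HFD. Orm3 and Il1rn differed by 1.31 and 0.76 between DEN/HFD and chow with saline. The difference between the MCOPPB effects was -1.52 for Orm3 and -0.95 for Il6ra.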

How the data were processed

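Libraries were prepared from 250 ng of TRIzol-extracted liver RNA with a directional kit and read as single 75-base reads, per the labels' protocols. The submitters' processing notes name Trimmomatic, STAR 2.7.0e, HTSeq, DESeq2 and the build GRCm38/mm10, without their roles. The deposited table holds variance-stabilized log2 values for 54281 genes in 15 libraries, with a lowest value of 5.49 for 0 reads. The transform was inverted to normalized counts. At most 46.0% of the values under 20 reads came out whole within 0.01 read, so reads were not recovered and no count test was run.

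Genes were kept when at least 1 log2 unit above the lowest value (22.49 normalized counts) in at least 3 libraries, leaving 11568. limma 3.58.1 (R 4.3.3) fitted 4 group means over all 15 libraries with an intensity trend, and tested 5 contrasts with Benjamini-Hochberg adjustment. Depth was estimated from the step between low values. It limits precision, and SDs hold counting error too. Symbols, coordinates and exon lengths came from GENCODE M21 (54107 IDs matched). Full values were given for called members, the 3 largest differences in each direction at an unadjusted p under 0.05, the fibrinogen chains and C3, with ranges for F2. Neighbours were chosen after their values were seen, as were C2, C9 and the ranges of Plg, Kng1 and Serpinc1. From companion lists, called genes and the 2 smallest p per contrast were named, with the sex-biased lists by their calls. The members and lists were chosen with earlier results of these data known. The fit was tested on simulated data. Alternatives were other filters, scalings, pseudocounts, array weights, RNA integrity as covariate, fits of the compared groups alone, a replicate block and leaving out each library. Equal replicate numbers did not pair the samples.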

Additional observations from a re-analysis of the deposited data

Results flagged for a closer look

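In groups of 4 or 5 libraries, 78 sets of values were searched for a library far from the rest of its group, and 6 were found where chance gives about 5%, or 3.9. F11 in DEN/HFD saline 4 had 810.1 normalized counts, above the 557 to 578 of the others. C1ra in the same library had 2807, above the 2205 to 2283 of the others. Fga in chow MCOPPB 4 had 13459, below the 32298 to 44630 of the others. Cfi in chow MCOPPB 4 had 5968, below 7342 to 7856. F10 in chow MCOPPB 4 had 5243, above 4014 to 4187. Mbl1 in chow MCOPPB 5 had 1264, below 1978 to 2209. Of the 6, 3 fell in chow MCOPPB 4, the library with the largest mitochondrial share.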

How the results depend on the processing

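Over 11 alternatives and 15 fits that each left out 1 library, none of the 17 member differences followed changed sign. They were the called differences and the 3 largest in each direction per comparison at an unadjusted p under 0.05. The fibrinogen chains between DEN/HFD and chow with saline were included too. The signs of the other differences given above were not followed. The members' median changed sign in both MCOPPB comparisons, as given with it above. With MCOPPB against saline on chow, 0 members were called with the RNA integrity number as covariate (15 of 11568 genes called), with the second such number of the labels (chosen after seeing the data, 26 genes) and with a replicate block (23 genes, C6 adjusted p = 0.0742, limma), against 37 genes as reported. Leaving out a library gave 0 to 1 called, with 0 without chow saline 3, and medians of -0.0097 to 0.13, the highest without chow saline 2. Between DEN/HFD and chow with MCOPPB, where 66 genes were called as reported, 0 members were called with no filter (45 of 23148 genes called), with the first and second RNA integrity number (0 and 34 genes) and with the replicate block (16 genes, F7 adjusted p = 0.242, limma), 3 with array weights (285 genes), and 0 to 2 when a library was left out, with C8b and F7 called without DEN/HFD saline 4. The replicate numbers only name samples: in 5 of 19 pairs with the same number the correlation of deviations passed 0.1 (mean -0.02733), against a mean of 0.008379 over 64 other pairs. No scaling moved the median of all genes by over 0.1. The causes were not tested. Groups of 3 to 5 libraries limit the precision, and all 39 members passed the filter on low values.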
